A study of Rattus norvegicus with 12 samples.

Results

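The Nr4a genes Nr4a1, Nr4a2 and Nr4a3 encode a small family of nuclear receptors, and their mRNA was followed here in the dorsal striatum of parkinsonian rats given subthalamic stimulation, L-DOPA or both. The members are all non-control probes that the array files name Nr4a1, Nr4a2 or Nr4a3: 5 of 41012 probes, of which 1 belongs to Nr4a1, 1 to Nr4a2 and 3 to Nr4a3. The family was chosen from values of these same arrays, because Nr4a3 stood higher in the HFS and DOPA groups and its response to stimulation with and without L-DOPA was to be described. The differences between groups are therefore given for the members as a description, with standard errors and no p-value.

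The study compared 4 groups of 3 rats, and striatal total RNA of each rat was read on its own Agilent array with a single dye, 12 arrays in all. Every rat carried a unilateral lesion of the dopamine neurons made with 9 µg of 6-OHDA. The 6-OHDA group had the lesion alone. In the HFS group, the subthalamic nucleus (STN) was stimulated at high frequency (130 Hz, 80 µs and 60 µA per pulse) over 5 days. L-DOPA at 25 mg/kg was injected in the DOPA group together with benserazide (12.5 mg/kg), which blocks its conversion outside the brain, 2 times a day 12 h apart during 19 days. The DOPA/HFS group received both, with stimulation during the last days of the L-DOPA course. The labels give all rats as male. Per the study's methods, tissue punches were pooled within each rat, and rats with an incomplete lesion or a misplaced electrode were left out. Stimulated rats were killed as soon as the stimulator was switched off, whereas the last L-DOPA injection lay hours earlier. The methods describe no electrode in the 6-OHDA and DOPA rats, so implantation and stimulation cannot be told apart.

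Nr4a receptors are transcription factors whose ligand pocket is closed by bulky side chains, so that their activity depends largely on how much of them is made. All 3 are immediate early genes: cAMP and calcium signals switch them on within the hour through CREB and related factors, and the mRNA is short-lived. In the striatum, Nr4a1 (also called Nur77) is expressed by the projection neurons and responds to changes in dopamine transmission. Nr4a2 (Nurr1) is best known for keeping dopamine neurons dopaminergic, and in the forebrain it marks the claustrum and deep cortex. Nr4a3 (Nor1) binds the same DNA element but, unlike the others, does not pair with retinoid X receptors.

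The promoters are shown because the CREB binding element is the textbook entry point of activity to these genes. The RefSeq promoter table (GRCr8) holds Nr4a1 and Nr4a2, and Nr4a3 is named only. The 250 bases before the start site are given 5′ to 3′, with each CGTCA, the core of the CREB element, or its reverse complement TGACG in capitals. The Nr4a1 stretch is chr7:134259888-134260137 on the plus strand and the Nr4a2 stretch is chr3:62104888-62105137 on the minus strand.
Nr4a1: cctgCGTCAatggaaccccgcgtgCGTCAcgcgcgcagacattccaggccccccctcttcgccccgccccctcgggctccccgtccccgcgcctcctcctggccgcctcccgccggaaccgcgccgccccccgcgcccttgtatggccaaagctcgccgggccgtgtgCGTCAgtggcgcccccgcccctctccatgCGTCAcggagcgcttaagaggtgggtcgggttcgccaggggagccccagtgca
Nr4a2: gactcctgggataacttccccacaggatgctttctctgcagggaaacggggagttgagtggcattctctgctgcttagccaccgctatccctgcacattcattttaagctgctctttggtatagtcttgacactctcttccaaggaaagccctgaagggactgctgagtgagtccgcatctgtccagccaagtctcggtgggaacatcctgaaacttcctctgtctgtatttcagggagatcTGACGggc

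The Nr4a1 stretch held 4 matches on the plus strand, beginning 246, 226, 82 and 53 bases before the start site, and each lay inside the longer TGCGTCA. The Nr4a2 stretch held 1 match, on the other strand, beginning 8 bases before the start site. Searched on both strands, at least 1 CGTCA was present in 18.2% of 33469 promoter entries of the same length, and at least 4 in 0.173%. TGCGTCA occurred in 1.66% of entries, and 4 or more copies of it in 1 entry, that of Nr4a1. The full palindrome TGACGTCA, which contains CGTCA, was in neither stretch and in 1.59% of all entries. These matches describe the letters of the sequence, and binding was not measured. The start sites are those of the RefSeq entries, and whether striatal transcripts begin there was not measured. The counts hold for the printed stretches only, so the single match of Nr4a2 does not speak for other start sites of that gene.

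The array signal is given throughout as log2 of the background-corrected intensity after quantile normalization between arrays, so that 1 unit is a doubling. A probe's level depends on its sequence, so levels of different genes were not compared. The Nr4a3 probe of higher mean signal over all arrays is called the brighter one. Of the 5 member probes, 4 were well above background on all 12 arrays and entered the fit. No member spot was marked as an outlier or as saturated. The remaining Nr4a3 probe (A_43_P11932) was well above background on 1 array only, HFS replicate 1, where it read 5.26, and ranged from 2.82 to 5.62 on the 12 arrays; no difference is given for it. The share of spots well above background was 60.3% to 63.2% in the HFS group and 60% to 62.8% in the DOPA/HFS group, against 53.8% to 58.9% in the 6-OHDA group and 50.5% to 58% in the DOPA group. The array of DOPA/HFS replicate 3 stood apart by 4175 outlier spots, which were left out, where no other array had more than 25. Each slide held 1 array of every group under the same replicate number, and each group always lay at the same position on its slide, so position and group cannot be told apart.

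Nr4a3, the member that acts without a retinoid X partner, was the member with the widest separation between groups. On the brighter probe (A_44_P654444), the 6-OHDA arrays read 8.47, 8.10 and 7.95 and the HFS arrays 10.23, 9.85 and 9.1. All 3 HFS arrays lay above all 3 6-OHDA arrays, and HFS replicate 3 was the lowest of them. The DOPA arrays read 8.58, 8.65 and 8.88, just above the highest 6-OHDA array and below the lowest HFS array. The DOPA/HFS arrays read 8.06, 8.34 and 8.27 and lay within the range of the 6-OHDA group.

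The group means of this probe were 8.17 ± 0.27 (SD, n = 3) for 6-OHDA, 9.73 ± 0.58 for HFS, 8.70 ± 0.16 for DOPA and 8.22 ± 0.15 for DOPA/HFS. HFS exceeded 6-OHDA by 1.55 (SE 0.26), a 2.94-fold higher signal, and the differences within the 3 slides were 1.77, 1.75 and 1.15. DOPA exceeded 6-OHDA by 0.53 (SE 0.26), with slide differences of 0.11, 0.55 and 0.93. DOPA/HFS differed from 6-OHDA by 0.05 (SE 0.26), and these neighbours in the order of levels did not differ beyond their spread. These 3 comparisons share the same 6-OHDA arrays.

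**Figure D1:**
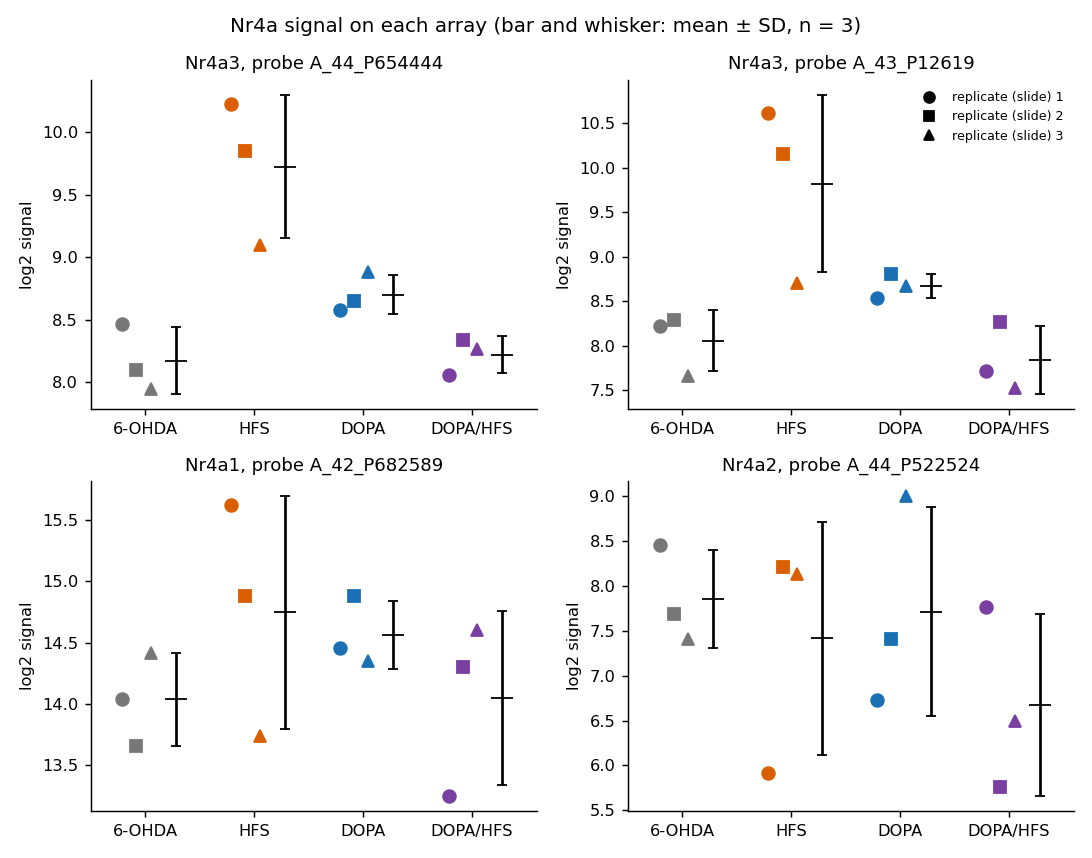
Each point is the log2 signal of 1 array, with the symbol giving the replicate number, and the bar and whisker give the mean ± SD of the 3 arrays of a group. The HFS arrays lie above all other arrays for the brighter Nr4a3 probe, whereas the groups overlap for Nr4a1 and Nr4a2.

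The other measured Nr4a3 probe (A_43_P12619) read 8.22, 8.29 and 7.66 in the 6-OHDA group and 10.61, 10.15 and 8.70 in the HFS group. Again the HFS arrays were all higher than the 6-OHDA arrays, with replicate 3 closest to them. The DOPA arrays read 8.53, 8.80 and 8.67, and those of DOPA/HFS 7.72, 8.27 and 7.53. HFS replicate 3 lay between the DOPA arrays on this probe, so that HFS and DOPA overlapped here. HFS exceeded 6-OHDA by 1.76 (SE 0.41), DOPA exceeded it by 0.61 (SE 0.41), and DOPA/HFS differed from it by -0.22 (SE 0.41).

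Both measured probes ranked the HFS arrays in the same order and placed HFS replicates 1 and 2 above all others. Their signals had a Pearson correlation of 0.96 over the 12 arrays and 0.88 after the group means were removed, given as a description since both read the same RNA. The difference between them had a mean of 0.11 and an SD of 0.32 over arrays, so neither was the higher on every array. In the authors' deposited table the correlation was 0.98. The dim probe correlated with the brighter one at 0.41 over all arrays and at 0.02 within groups.

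**Figure D2:**
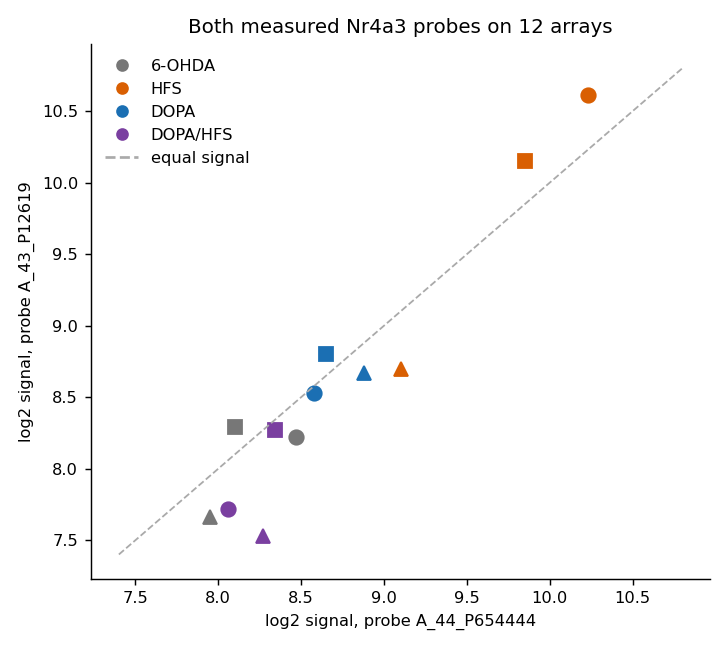
Each point is 1 array, with the log2 signal of the brighter Nr4a3 probe on the x axis and of the other measured probe on the y axis, coloured by group, with circles, squares and triangles for replicates 1, 2 and 3. Points lie near the line of equal signal, with HFS replicates 1 and 2 at the upper end.

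The question of whether stimulation acted alike without and with L-DOPA was addressed by comparing HFS with 6-OHDA and DOPA/HFS with DOPA. On the brighter Nr4a3 probe, the DOPA/HFS arrays were all lower than the DOPA arrays. The difference was -0.48 (SE 0.26), with slide differences of -0.52, -0.32 and -0.61. On the other probe it was -0.83 (SE 0.41), with slide differences of -0.81, -0.53 and -1.14, and again the groups did not overlap. Stimulated arrays were thus above unstimulated ones on every slide without L-DOPA and below them on every slide with L-DOPA, on both probes. Because the groups did not overlap, any pairing of their arrays gives these signs, so the slides add nothing to the lack of overlap.

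The difference between those effects, the stimulation by L-DOPA interaction, was -2.04 (SE 0.36) for the brighter Nr4a3 probe and -2.58 (SE 0.57) for the other. The slides gave -2.28, -2.06 and -1.76 for the former and -3.19, -2.39 and -2.18 for the latter. Compared directly, DOPA/HFS was below HFS by a difference of -1.50 (SE 0.26) on the brighter probe and -1.98 (SE 0.41) on the other, with no overlap between the groups. The interaction was part of the reason for choosing the family, so it is given as a description.

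**Figure D3:**
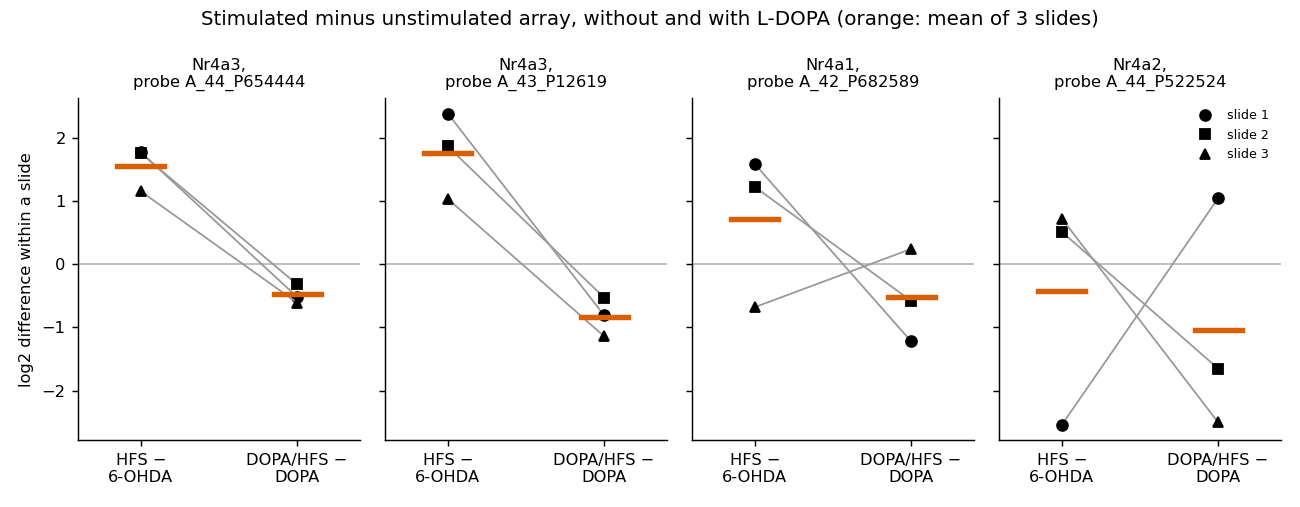
Each line joins, for 1 slide, the log2 difference of the HFS and 6-OHDA arrays with that of the DOPA/HFS and DOPA arrays, and orange bars mark the means of the 3 slides. The lines fall from above 0 to below 0 on all 3 slides for both Nr4a3 probes, and cross in different directions for Nr4a1 and Nr4a2.

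Nr4a1, the most studied member in the striatum and a partner of retinoid X receptors, varied widely between rats of the same group. Its probe (A_42_P682589) read 14.04, 13.66 and 14.42 in the 6-OHDA group and 15.62, 14.88 and 13.74 in the HFS group. HFS replicates 1 and 2 were above every 6-OHDA array and HFS replicate 3 was below the 6-OHDA mean. The DOPA arrays read 14.46, 14.88 and 14.35, and the DOPA/HFS arrays 13.25, 14.30 and 14.60. No pair of groups compared was free of overlap.

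HFS exceeded 6-OHDA for Nr4a1 by 0.71 (SE 0.46), with slide differences of 1.58, 1.22 and -0.68. DOPA exceeded 6-OHDA by 0.52 (SE 0.46), and DOPA/HFS differed from 6-OHDA by 0.01 (SE 0.46). With L-DOPA, stimulated arrays differed from unstimulated ones by -0.52 (SE 0.46), on the slides by -1.22, -0.58 and 0.24. The interaction was -1.22 (SE 0.65), negative on slides 1 and 2 (-2.80 and -1.79) and positive on slide 3 (0.93). The SD within groups was 0.64, larger than that of 92.3% of the 21850 tested probes with a value on every array, whose median was 0.28. For Nr4a3 it was 0.34 on the brighter probe, larger than 63.7% of them, and 0.56 on the other, larger than 88.9%.

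Nr4a2, which is needed for the expression of Th and other genes of dopamine neurons, varied most of all. Its probe (A_44_P522524) read 8.46, 7.69 and 7.41 in the 6-OHDA group and 5.92, 8.21 and 8.13 in the HFS group. The DOPA arrays read 6.73, 7.41 and 9.00, and those of DOPA/HFS 7.77, 5.76 and 6.50. All groups overlapped. The lowest arrays were DOPA/HFS replicate 2 and HFS replicate 1, and the highest was DOPA replicate 3. The SD within groups was 1.05, larger than that of 98.8% of the tested probes.

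For Nr4a2, HFS differed from 6-OHDA by -0.43 (SE 0.73), DOPA by -0.14 (SE 0.73) and DOPA/HFS by -1.18 (SE 0.73). DOPA/HFS was below 6-OHDA on every slide, by -0.69, -1.93 and -0.91, although the groups overlapped. The interaction was -0.60 (SE 1.04), with slide values of 3.58, -2.16 and -3.22. None of these differences was large against the spread between arrays.

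Over all 24239 tested probes, limma called a probe whose p after Benjamini-Hochberg adjustment was under 0.1 and whose fold was over 1.2 or under 0.8. It called 0% of probes for HFS against 6-OHDA, 0.00413% (1 probe) for DOPA against 6-OHDA, and 0% for DOPA/HFS against 6-OHDA, against DOPA and against HFS and for the interaction. No member probe was among them: 0 of 4 in each of the 6 comparisons. At an unadjusted p under 0.05, limma passed 2 of 4 member probes for HFS against 6-OHDA, both of Nr4a3, where 2.23% of all probes passed. It passed 2 of 4 for DOPA/HFS against HFS (2.45% of all probes) and 2 of 4 for the interaction (2% of all probes). It passed 0 of 4 for DOPA against 6-OHDA (2.48%), DOPA/HFS against 6-OHDA (2.68%) and DOPA/HFS against DOPA (3.81%). The members were chosen on these contrasts, so nothing is read from these counts.

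The adjusted calls for Nr4a3 turned on 1 array. Without HFS replicate 3, limma called both measured Nr4a3 probes for HFS against 6-OHDA, for DOPA/HFS against HFS and for the interaction. The difference of HFS from 6-OHDA on the brighter probe was then 1.87, and without HFS replicate 1 it was 1.30. These contrasts chose the family, and the array left out was the lowest of its group, so these calls are no test of Nr4a3. Groups without overlap occurred in 2 of 4 member probes for HFS above 6-OHDA (2.81% of all probes), DOPA above 6-OHDA (3.16%), DOPA/HFS below DOPA (5.64%) and DOPA/HFS below HFS (4.1%), each time both probes of Nr4a3. Between DOPA/HFS and 6-OHDA, 0 of 4 were free of overlap, where 4.11% of all probes were, in either direction.

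Whether members varied together between rats was examined within groups, a measure that the choice of the family did not use. After the group means were removed, Nr4a1 and Nr4a3 had a Pearson correlation of 0.69 over 12 arrays (exact permutation within groups, two-sided p = 0.11, adjusted p = 0.165 over 3 pairs) and a Spearman correlation of 0.44 (permutation p = 0.279). Without the 2 arrays farthest from the median of Nr4a1, HFS replicate 3 and DOPA/HFS replicate 1, it was 0.38. Nr4a1 and Nr4a2 had a Pearson correlation of -0.66 (exact permutation p = 0.0934, adjusted p = 0.165), a Spearman correlation of -0.64 (permutation p = 0.0748) and -0.55 without the same arrays. Nr4a2 and Nr4a3 had -0.27 (exact permutation p = 0.642, adjusted p = 0.642), a Spearman correlation of -0.06 (permutation p = 0.897) and -0.12 without DOPA replicate 3 and HFS replicate 1. No pair passed the test.

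Other early response genes, most of which share the activity-driven induction of the Nr4a family, were taken as a list of 30. Of these, 28 were on the array and 26 were tested. None was called by limma in any comparison, and the lowest adjusted p was 0.999. For HFS against 6-OHDA, 14 of 26 were higher and 12 lower, with a median difference of 0.06 beside 0.02 over all probes. At an unadjusted p under 0.05, 2 passed upward and 2 downward, where 2.23% of all probes passed in either direction. Nfil3, a basic leucine zipper repressor, was 0.69 (SE 0.15) higher, with 8.87, 8.90 and 8.77 in the HFS group against 8.20, 7.93 and 8.32 in the 6-OHDA group. Fosl2, an AP-1 subunit, was 0.95 (SE 0.36) higher, and 0.57 without 6-OHDA replicate 2. The antiproliferative gene Btg2 and the AP-1 subunit Jund differed by -0.73 (SE 0.26) and -0.69 (SE 0.29). Without 6-OHDA replicate 3 the former was -0.45, and without 6-OHDA replicate 2 the latter was -0.45.

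Fos, the standard marker of recent neuronal activity, was close to the 6-OHDA level under stimulation, with means of 8.69 ± 0.35 in HFS and 8.61 ± 1.07 in 6-OHDA (SD, n = 3). The 6-OHDA mean rested on an array at 9.85 beside 8.06 and 7.92. Egr2, a zinc finger factor of the same class, showed the pattern of Nr4a3 and Nr4a1 within the HFS group, with 11.25, 10.06 and 7.96. Against 8.14, 8.39 and 8.81 in the 6-OHDA group the HFS arrays thus overlapped, with replicate 3 again the lowest. Without HFS replicate 3, limma called Egr2 lower in DOPA/HFS than in HFS.

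In the groups given L-DOPA, most genes of the list had lower values. For DOPA against 6-OHDA, 18 of 26 genes were lower (median -0.15, beside 0 over all probes), and 4 passed an unadjusted p under 0.05, all downward: Fos (-1.26, SE 0.42), Atf3 (-1.11, SE 0.33), Btg2 (-0.90, SE 0.26) and Ier2 (-0.77, SE 0.34). Without 6-OHDA replicate 3, the differences of Fos and Ier2 were -0.64 and -0.31. Both Nr4a3 probes lay the other way in that comparison. For DOPA/HFS against 6-OHDA, 22 of 26 were lower (median -0.39, beside 0), and 4 passed downward and 0 upward. These were Fos (-1.58, SE 0.42), Btg2 (-1.06, SE 0.26), Dusp1 (-1.04, SE 0.37) and Ier2 (-0.83, SE 0.34). Without 6-OHDA replicate 3, the differences of Fos, Btg2, Dusp1 and Ier2 were -0.96, -0.78, -0.6 and -0.36. For DOPA/HFS against HFS, 22 of 26 were lower (median -0.36, beside -0.02), and 8 passed downward. These included Fos (-1.65, SE 0.42), Fosl2 (-1.27, SE 0.36), Egr2 (-1.92, SE 0.61) and Arc (-0.94, SE 0.33). The others were Dusp1 (-0.84, SE 0.37), Nfil3 (-0.6, SE 0.15), Egr1 (-0.58, SE 0.25) and Egr3 (-0.52, SE 0.21). Without HFS replicate 1, the differences of Egr2 and Egr1 were -1.17 and -0.38. Without DOPA/HFS replicate 2, that of Egr3 was -0.33. For DOPA/HFS against DOPA, 20 of 26 were lower (median -0.19, beside 0) and 0 passed. The interaction was negative in 18 of 26 (median -0.30, beside -0.02), with Nfil3 (-0.74, SE 0.22) and Fosl2 (-1.32, SE 0.51) past the unadjusted limit. Of all probes, 2.48% passed that limit for DOPA against 6-OHDA and 2.68% for DOPA/HFS against 6-OHDA. The share was 2.45% for DOPA/HFS against HFS, 3.81% for DOPA/HFS against DOPA and 2% for the interaction. The lowest adjusted p of the list in these limma comparisons was 1.

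**Figure D4:**
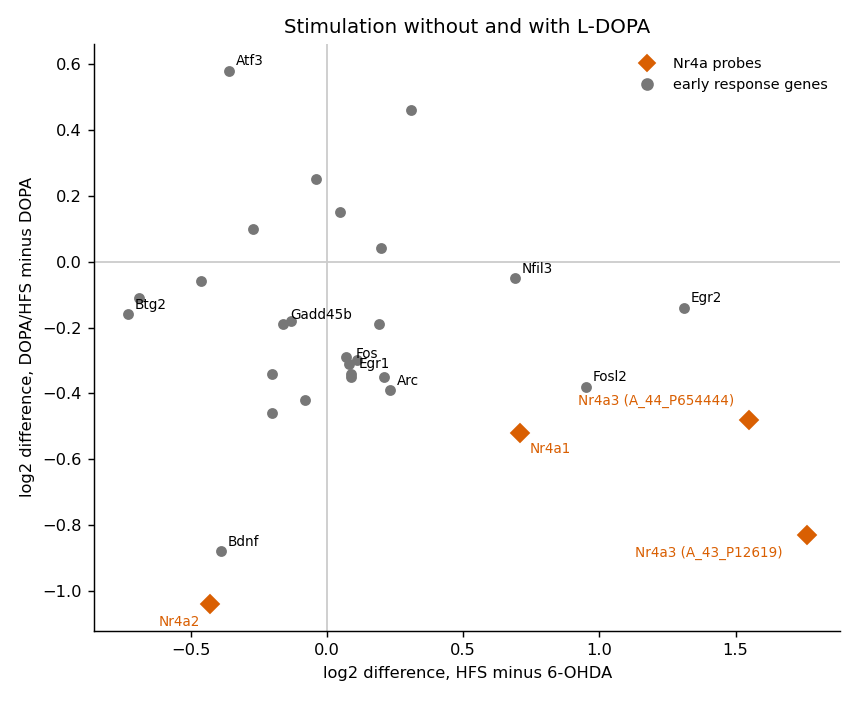
The x axis is the log2 difference of HFS and 6-OHDA and the y axis that of DOPA/HFS and DOPA, for the 26 tested early response genes (grey) and the 4 tested Nr4a probes (orange). The Nr4a3 probes lie farthest to the right, at 1.55 and 1.76, and Nr4a1 and Nr4a3 lie where signal was higher with stimulation alone and lower with stimulation on top of L-DOPA.

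The likeness of single genes to the members is given as Pearson correlation over the 12 arrays, a description in which the points share group, slide and RNA. Among the early response genes, 10 of 26 correlated with Nr4a1 above 0.5, where 4.68% of the 18357 tested genes with a value on every array did, led by Egr4 (0.76), Egr2 (0.73) and Arc (0.72). For Nr4a3 it was 6 of 26 (3.28% of those genes), led by Nfil3 (0.83), Egr2 (0.80) and Fosl2 (0.71). After group means were removed, Nfil3 fell to 0.12 and Fosl2 to 0.20 with Nr4a3, while Egr2 was at 0.82 and Klf4, a Krüppel-like factor, at 0.91. The SD of Egr2 was 1.66 in HFS and 0.24 to 0.34 in the other groups. That of Klf4 was 0.87 in HFS and 0.08 to 0.29 in the others, so the HFS arrays weighed most in both correlations. For Nr4a2, the genes above 0.5 before removal of group means were 1 of 26 (4.65% of those genes): Bdnf, the neurotrophin, at 0.90. Bdnf was dim, at 4.49 to 7.06, and not well above background on 6-OHDA replicate 3, HFS replicate 1 and DOPA/HFS replicate 3.

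Over the same tested genes, the patterns most like Nr4a1 were those of Rhoc_predicted (0.92), LOC501979 (0.86), Gtf2a2 (0.86), Dtnbp1 (0.84) and LOC365977 (0.84), as the files name them. The genes most like Nr4a2 were 3 transcripts without a gene name (0.92 to 0.97), Bdnf (0.90) and Clcn6_predicted (0.88). Those most like Nr4a3 were RGD1311747_predicted (0.86), RGD1306526_predicted (0.85), Etv5_predicted (0.85) and 2 transcripts without a gene name (0.84 and 0.87). None of the 5 genes most like Nr4a3 had as large a difference of HFS from 6-OHDA as Nr4a3 itself: they lay between 0.22 and 0.61.

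The regulators upstream of the family, such as Creb1, the CREB coactivators and the MEF2 factors, numbered 15, of which 10 were on the array and tested. None was called by limma in any of the 6 comparisons (lowest adjusted p 0.999), and for HFS against 6-OHDA none passed an unadjusted p under 0.05 (median 0.05, beside 0.02). With L-DOPA and stimulation together, Mef2a was lower than in the DOPA group by a difference of -0.74 (SE 0.33) and Mef2d higher by 0.56 (SE 0.22), both past the unadjusted limit alone. From 6-OHDA, the DOPA/HFS group differed by -0.77 (SE 0.33) for Mef2a and -0.37 (SE 0.16) for Ppp3ca, again past that limit alone. Without 6-OHDA replicate 2 the former was -0.45, and without DOPA/HFS replicate 3 the latter was -0.21. Mef2d differed from 6-OHDA by 0.1 (SE 0.22) in DOPA/HFS and by -0.46 (SE 0.22) in DOPA. Among the partners, Rxra, Rxrb and Rxrg were tested, 3 of 5 listed genes, and none was called. Rxrg, the retinoid X receptor enriched in the striatum, was higher in DOPA than in 6-OHDA by 0.29 (SE 0.13) and higher in HFS by 0.16 (SE 0.13).

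Genes that Nr4a2 is known to control in dopamine neurons were taken as a list of 5. Ddc, the enzyme that makes dopamine from L-DOPA, and Ret, a receptor for glial neurotrophic factors, were well above background on all 12 arrays. Slc6a3, the dopamine transporter, was well above background on 0 of 12 arrays. Th, tyrosine hydroxylase, read 5.31, 4.38 and 5.33 in the 6-OHDA group and 5.98, 5.62 and 6.07 in the DOPA group, a difference of 0.89 (SE 0.26). On 6-OHDA replicates 2 and 3 it was not well above background, and without replicate 2 the difference was 0.57. In the same comparison Slc18a2, the vesicular monoamine transporter, differed by -1.03 (SE 0.45) and Ret by -0.56 (SE 0.22), both with groups that did not overlap. Of the 4 tested genes of this list, 1 passed an unadjusted p under 0.05 upward and 2 downward, and the adjusted p of each in limma was 1. Nr4a2 itself differed by -0.14 in that comparison. No tested gene of the list was called by limma in any comparison. Of the striatal neuropeptide genes, Penk, Pdyn and Tac1 were tested, 3 of 4 listed, and none was called. Pdyn, prodynorphin of the direct pathway neurons, was higher in DOPA than in 6-OHDA by 1.39 (SE 0.28), with 16.09, 16.21 and 15.98 against 14.53, 14.83 and 14.74. Its adjusted p in limma was 0.876, and it was called only when DOPA/HFS replicate 1 was left out.

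The labelled tissue was checked on markers of striatal projection neurons. Of 9 listed, 8 were on the array, and 7 or 8 of them were well above background on every array, with a summed signal of 16.80 to 17.36 in log2 units. Markers of the choroid plexus, the secretory tissue of the ventricles, moved with the groups. The log2 sum of 8 of the 10 listed markers, those with a value on all arrays, was 8.16 to 8.68 in 6-OHDA, 12.08 to 16.45 in HFS, 7.98 to 14.02 in DOPA and 8.25 to 9.90 in DOPA/HFS. Ttr made up most of the sum on the HFS arrays (16.3, 11.86 and 15.28) and on DOPA replicate 3 (13.81). Its mean was 14.48 in HFS and 6.21 in 6-OHDA, whereas that of Otx2 was 8.88 and 7.1. In these bulk punches fewer cells of a type and less RNA per cell cannot be told apart.

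Set beside Nr4a3, HFS replicate 2 had the lowest choroid plexus sum of its group, 12.08, and a Nr4a3 signal of 9.85, above that of HFS replicate 3, where the sum was 15.46 and Nr4a3 9.1. DOPA replicate 3 had a sum of 14.02, higher than HFS replicate 2, and a Nr4a3 signal of 8.88. That signal was the highest of the DOPA group. The highest values of both measures were on HFS replicate 1. Over the arrays, the brighter Nr4a3 probe had a positive Pearson correlation with 10 of 10 choroid plexus markers, from 0.57 (Slc4a5) to 0.79 (Kcnj13). This is a description over 11 or 12 arrays that share groups and slides. The part of these markers in the Nr4a3 difference was not tested.

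**Figure D5:**
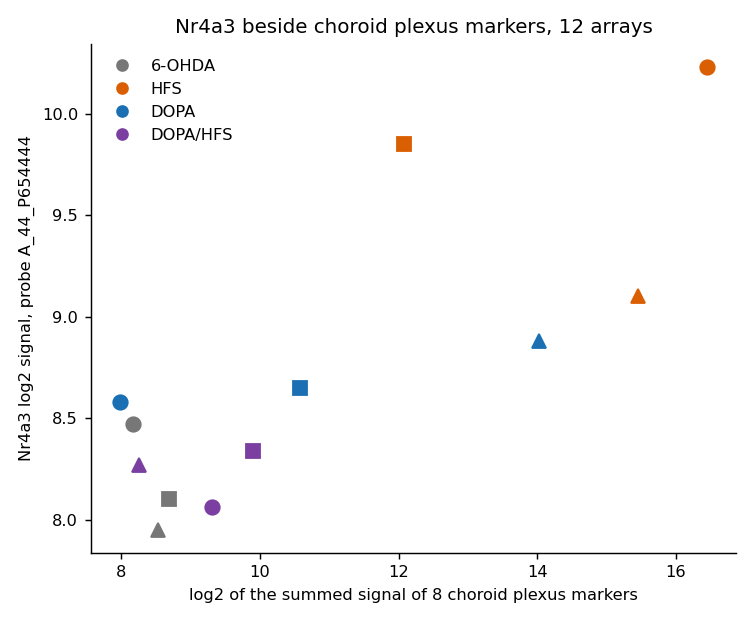
Each point is 1 array, with the log2 of the summed signal of 8 choroid plexus markers on the x axis and the log2 signal of the brighter Nr4a3 probe on the y axis, coloured by group. The HFS arrays have sums of 12.08 to 16.45 and the highest Nr4a3 signals, and DOPA replicate 3 has a sum of 14.02 with Nr4a3 at 8.88. Ttr makes up most of the sum on these arrays.

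Cortex and claustrum markers bear on Nr4a2, which those regions express. The log2 sum of 5 of the 10 listed markers, those on the array, was 11.19 to 11.90 in 6-OHDA, 11.38 to 12.03 in HFS, 11.19 to 12.12 in DOPA and 11.40 to 11.76 in DOPA/HFS. Gnb4 and Ctgf, the brightest of them, made up most of each sum. Their 6-OHDA means were 10.35 and 10.12, beside 8.42 for Neurod2, 5.95 for Slc17a7 and 5.13 for Nxph4. DOPA replicate 3, with the highest Nr4a2 signal of 9.00, had the highest sum, and HFS replicate 1, with 5.92, had the lowest sum of its group. DOPA/HFS replicate 2, with the lowest Nr4a2 signal of 5.76, had a sum of 11.53. The lowest sums, 11.19, were on 6-OHDA replicate 2 and DOPA replicate 2, where Nr4a2 read 7.69 and 7.41. Neurod2, a cortical transcription factor, read 7.19 on HFS replicate 1 and 9.71 on DOPA replicate 3. Over the 12 arrays, Nr4a2 had a Pearson correlation of 0.74 with Neurod2 and 0.58 with Slc17a7. With the other markers it was 0.35 (Gnb4), 0.16 (Nxph4) and 0.13 (Ctgf), a description over arrays that share groups and slides. The part of these markers in the Nr4a2 values was not tested. The sums of leptomeningeal (11.50 to 12.78), ependymal (10.55 to 12.71), endothelial (12.50 to 13.23) and microglial markers (13.30 to 13.62) overlapped between HFS and 6-OHDA. The DOPA arrays had endothelial sums of 12.97 to 13.23, all above those of 6-OHDA (12.78 to 12.83) and DOPA/HFS (12.70 to 12.86), as was so for Nr4a3. The likeness did not extend to HFS, the group of highest mean Nr4a3 signal, where the endothelial sums were 12.50 to 13.02. Cldn5 was by far the brightest endothelial marker, with means of 13.05 in DOPA and 12.77 in 6-OHDA. The leptomeningeal sums of the DOPA arrays, 11.95 to 12.30, were all above those of 6-OHDA (11.75 to 11.83). Crabp2, the brightest of these markers, had a mean of 11.55 in DOPA and 10.98 in 6-OHDA. The collagen genes went the other way, with 8.91 against 9.19 for Col1a1 and 9.12 against 9.42 for Col1a2, so the markers did not move together. The part of these markers in the Nr4a3 differences was not tested.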

How the data were processed

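Striatal RNA of 12 rats was measured on 12 arrays. The intensity values are those of the scanner files the authors deposited, made with Agilent Feature Extraction 9.1 per the labels, which had subtracted background but not normalized between arrays. The authors also deposited log2 values, quantile normalized between arrays, which served as an alternative. Of 45018 spots an array, 1639 controls and all outlier spots were left out, log2 intensities were quantile normalized, spots of a probe were averaged, and a probe was kept where the share of arrays on which it was well above background reached 0.4. limma 3.58.1 in R 4.3.3 fitted all 4 groups, and standard errors are moderated. The pipeline was tested on simulated data. Probes were named through RefSeq accessions (GRCr8) where these matched (10735 of 41012), otherwise as the files name them, and a listed gene is given by its brightest tested probe. Precision is limited by the number of arrays, and nothing in the labels says more of the replicates than 1 rat each.

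The members, gene lists and comparisons were chosen with earlier results of these data known. Named genes are the members, the listed pathway and marker genes, and per member the 5 genes of highest correlation. Alternatives were scaling to the 75th percentile, normexp with an offset of 50, the deposited table, outlier spots kept, other filters on dim probes, 1 probe per gene or the mean of all, a block for the replicate number, fitting only those arrays that enter a comparison, no fold limit, a limit of 0.05 on the adjusted p, and leaving out each array. Leaving out arrays for single listed genes was added after seeing the data.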

Additional observations from a re-analysis of the deposited data

Results flagged for a closer look

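The response of Nr4a3 to stimulation went opposite ways without and with L-DOPA. On both measured probes all 3 HFS arrays lay above all 3 6-OHDA arrays, and all 3 DOPA/HFS arrays lay below all 3 DOPA arrays. The difference between both effects was -2.04 on the brighter probe (A_44_P654444) and -2.58 on the other (A_43_P12619). The family was chosen partly for this pattern, and the difference was not tested on values that the choice did not use. In the fit over all probes limma called neither probe for it, and both when HFS replicate 3, the lowest of its group, was left out; nothing is read from either count.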

How the results depend on the processing

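Over all settings run, including each array left out, the differences of Nr4a3 between HFS and 6-OHDA, DOPA and 6-OHDA, DOPA/HFS and DOPA, and DOPA/HFS and HFS kept their sign on both probes, as did the interaction. With each array left out in turn, the brighter probe's difference of HFS from 6-OHDA ran from 1.30 to 1.87 and its interaction from -2.35 to -1.78. The normexp background brought that interaction to -1.64. The mean of all 3 probes, the dim one included, brought the DOPA difference to 0.01 and that of DOPA/HFS from 6-OHDA to -0.47. The differences of DOPA/HFS from 6-OHDA for Nr4a1 and the brighter Nr4a3 probe, and those of HFS and DOPA from 6-OHDA and the interaction for Nr4a2, changed sign under at least 1 setting, so no direction is given for them.

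Calls over all probes were few under every setting. For HFS against 6-OHDA they numbered 4 with no filter on dim probes and 1 with the filter on all 3 arrays of a group, the same numbers as for DOPA/HFS against HFS, and 1 under that filter for the interaction. For DOPA against 6-OHDA they were 2 with outlier spots kept, 3 with only the arrays compared and 0 with no filter, with an adjusted p under 0.05 or with the replicate number as a block. With each array left out, they ran from 0 to 2 for HFS and from 0 to 15 (the latter without DOPA/HFS replicate 1) for DOPA against 6-OHDA, from 0 to 3 for DOPA/HFS against 6-OHDA and against HFS, and from 0 to 2 for the interaction. Member probes called ran from 0 to 2 for HFS against 6-OHDA, DOPA/HFS against HFS and the interaction, where 2 came without HFS replicate 3. Listed pathway genes called ran from 0 to 1 for DOPA against 6-OHDA and for DOPA/HFS against HFS.

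The replicate block left the member differences as they were, since every slide holds all groups, and called 0 member probes. Of 18 pairs of arrays with the same number, 9 correlated above 0.1 in their deviations (range -0.32 to 0.49), and 5 of 12 arrays correlated best with their own number, so the numbers were not taken to pair the rats. With the block, the within-group correlations were 0.74 for Nr4a1 and Nr4a3, -0.66 for Nr4a1 and Nr4a2 and -0.17 for Nr4a2 and Nr4a3. In the deposited table that of Nr4a1 and Nr4a2 was -0.70 (exact permutation p = 0.037, not adjusted over the 3 pairs). With each array left out, the first ran from 0.32 to 0.83, the second from -0.75 to -0.46 and the third from -0.47 to 0.24. Their exact permutation p, not adjusted, ran from 0.0324 to 0.37, from 0.0694 to 0.308 and from 0.319 to 0.926. These p-values under single settings are given as a range, and no pair is singled out by them.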
